A study of Mus musculus with 12 samples.

Results

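The genes that injured kidney tubules are known to switch on were followed over 3 genotypes of mouse kidney. The set was fixed by name and holds 10 genes: Lcn2, Havcr1, Clu, Spp1, Vcam1, Sox9, Cd44, Vim, Fgb and Fgg. It was chosen with earlier results of these data known. Each probe of the deposited array table that carried one of these symbols was taken, which gave 12 probes for 7 of the 10 genes, out of 12344 genes with a named probe. Clu (clusterin), Spp1 (osteopontin) and Fgb (fibrinogen beta chain) had no named probe among those used and were not analysed here.

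The samples came from 12 mice labelled C57BL/6, of lines that the study had backcrossed to C57/BL6J, 15 weeks of age, and their RNA was put on Illumina MouseWG-6 BeadChips, with 4 arrays a genotype. Fh1-/- mice carried Fh1 fl/fl with the Ksp-Cre transgene, and Fh1-/-Hif-1α-/- mice carried Hif-1α fl/fl as well. Fh1 encodes fumarate hydratase of the tricarboxylic acid cycle, and Hif-1α is the hypoxia-inducible transcription factor that fumarate can stabilise. Controls were littermates that had the conditional alleles without Ksp-Cre, or a wild-type allele with it. Ksp-Cre is driven by the kidney-specific cadherin promoter, so excision is limited to tubule cells, and the vessels, the interstitium and tubule cells without Cre keep both genes. The labels call the tissue of all 12 samples cysts, controls included, whereas the study describes kidneys. Any other difference between the mutant lines cannot be told apart here from the loss of Hif-1α.

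After ischaemia, toxins or obstruction, tubule cells lose their differentiated state, secrete and shed proteins into the urine, attach leukocytes, and take on features of the embryonic kidney before they repair. Lcn2 (lipocalin 2, or NGAL) binds the iron-carrying siderophores of bacteria and Havcr1 (kidney injury molecule 1) is a receptor for apoptotic cells. Both are used as urinary injury markers. Vcam1 and Cd44 are adhesion receptors for integrins and hyaluronan, Sox9 is a transcription factor of repairing epithelium, Vim is the intermediate filament vimentin, and Fgg is the gamma chain of fibrinogen, which is made mainly in liver but also in injured tubules.

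All signals are normalized log2 signals, so a difference of 1 is a doubling of the signal, and the signal of one probe cannot be set against that of another. The 75th percentiles of the arrays as deposited lay between 11.06 and 11.12, each array was shifted to their mean by at most 0.0397, and arrays of one group correlated with r of 0.962 to 0.9936. Genotypes were compared with limma in 1 model over the 3 groups, and a gene was said to rise or fall where its p, after Benjamini-Hochberg adjustment across the 23863 probes, was under 0.05. A gene with several probes was represented by the brightest. The brighter Fh1 probe differed by -0.14 between Fh1-/- and control (adjusted p = 0.446) and by -0.40 between Fh1-/-Hif-1α-/- and control (adjusted p = 0.0141, limma). The brighter Hif1a probe was higher in Fh1-/-Hif-1α-/- than in control kidneys by 0.85 (adjusted p = 0.0164, limma), while the dimmer one differed by -0.19 (adjusted p = 0.647). The dimmer Hif1a probe was 0.97 higher in Fh1-/- than in control kidneys (adjusted p = 0.0457, limma). This call was lost in a plain test without moderation (adjusted p = 0.101). The dimmer Hif1a probe was near the floor of the arrays in 2 groups. Its mean was 7.17 in control (percentile 0.038 of all probes) and 6.98 in Fh1-/-Hif-1α-/- kidneys (percentile 0.0084). In Fh1-/- kidneys its mean was 8.14 (percentile 20.5). The same probe differed by -1.16 between Fh1-/-Hif-1α-/- and Fh1-/- kidneys (adjusted p = 0.0993, limma). Where these probes lie relative to the deleted exons was not known, so they do not check the genotypes. By Q-PCR on the same mRNA the study reported lower Fh1 in both mutant genotypes and lower Hif-1α in Fh1-/-Hif-1α-/- kidneys.

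In Fh1-/- kidneys 3 of the 7 measured markers rose over control, namely Lcn2, Vcam1 and Cd44, and none fell. Over all genes 3.9% rose and 2.26% fell in this comparison. In Fh1-/-Hif-1α-/- kidneys 5 of 7 rose, with Havcr1 and Sox9 in addition, and none fell, where 10.7% of all genes rose and 8.64% fell. The median difference from control of the 7 markers was 0.89 with loss of Fh1 and 1.35 with loss of both genes, against -0.03 and -0.03 over all genes. Both comparisons share the control arrays. Because the markers were chosen with earlier results of these data known, the shares over all genes describe the set and do not test it. Vim and Fgg did not pass in either, although their estimates were positive. At an unadjusted limma p under 0.05, 5 and 7 of the 7 markers were higher, where 11.6% and 17.5% of all genes were, and 0 were lower, where 12.4% and 17.1% of all genes were. The markers whose arrays were all above the controls numbered 4 of 7 after loss of Fh1 and 5 of 7 after loss of both genes, where 8.08% and 12.2% of all genes were higher without overlap.

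**Figure D1:**
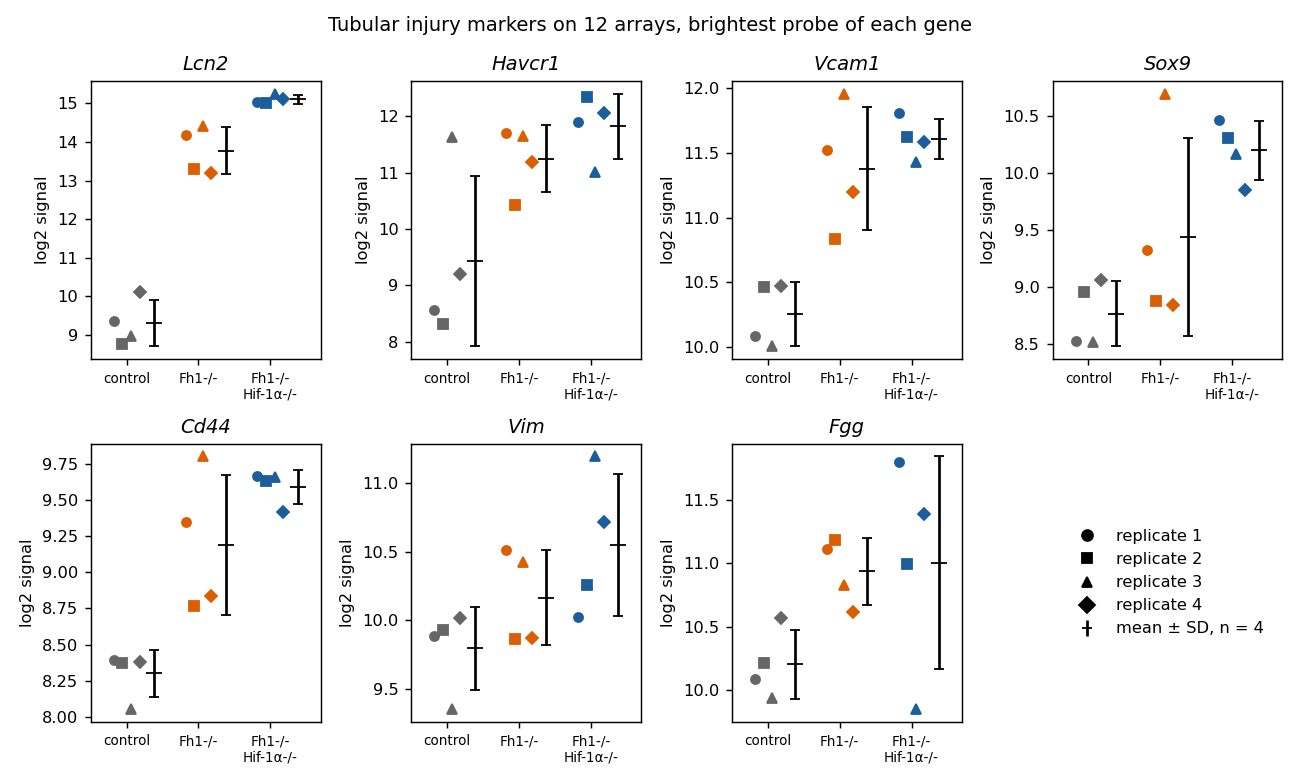
Log2 signal (y axis) of the brightest probe of each measured marker on 4 arrays of each genotype (x axis), with marker shapes for replicates and the black bar for the mean ± SD. The Lcn2 signals of the 3 groups lie apart, whereas control replicate 3 reaches 11.62 for Havcr1 and Fh1-/-Hif-1α-/- replicate 3 falls to 9.85 for Fgg.

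Lcn2 was the marker that changed most. Control kidneys gave Lcn2 log2 signals of 9.35, 8.76, 8.96 and 10.11 (9.30 ± 0.60, SD, n = 4). Fh1-/- kidneys gave 14.19, 13.29, 14.42 and 13.20 (13.78 ± 0.62, SD, n = 4), and Fh1-/-Hif-1α-/- kidneys 15.03, 15.00, 15.25 and 15.13 (15.10 ± 0.11, SD, n = 4). The 3 groups did not overlap, and the lowest Fh1-/- array lay 3.09 above the highest control.

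The rise of Lcn2 was 4.48 in Fh1-/- kidneys (95% interval 3.81 to 5.14, 22.3-fold, adjusted p = 1.17e-05, limma). It was 5.80 in Fh1-/-Hif-1α-/- kidneys (95% interval 5.14 to 6.47, 55.9-fold, adjusted p = 1.38e-06, limma). In both comparisons this was the second largest rise of all 23863 probes. Between Fh1-/-Hif-1α-/- and Fh1-/- kidneys the Lcn2 difference was 1.33 (95% interval 0.66 to 1.99), with every Fh1-/-Hif-1α-/- array above every Fh1-/- array, where 3.94% of all genes were higher without overlap. It did not pass the adjustment over all probes (adjusted p = 0.123, limma), and the exact two-sided permutation test gave p = 0.029, the smallest that 4 against 4 arrays allow.

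The 250 bases before the Lcn2 start site (RefSeq, build GRCm38.p6, minus strand, chr2:32387740-32387989) are shown because this gene moved most. Lcn2 is a known target of NF-kB. The windows were searched on both strands for NF-kB sites (GGG and CC, 5 bases apart), STAT sites (TTCNNNGAA), AP-1 sites (TGANTCA) and antioxidant response elements (TGACNNNGC). The capitals mark the 1 match, to the NF-kB letters, at -102 to -93 from the start site.
Lcn2 promoter: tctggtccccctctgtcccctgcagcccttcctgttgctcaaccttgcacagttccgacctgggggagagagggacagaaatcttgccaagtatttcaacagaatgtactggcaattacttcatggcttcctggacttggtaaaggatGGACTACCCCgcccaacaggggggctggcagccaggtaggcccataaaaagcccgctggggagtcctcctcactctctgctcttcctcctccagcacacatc
These NF-kB letters occur in 45.8% of 32851 promoter windows of this length, so the match describes the sequence and does not set Lcn2 apart. The Cd44 window also held 1 NF-kB match and the Vim window 3, of which 2 overlap, while the 3 Havcr1 windows held none of the 4 motifs.

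The 5 genes whose pattern over the 12 arrays was most like that of Lcn2 were Sprr2g, Cbr3, Sprr2f, Trib3 and Ugt2b35. Likeness was measured as the root mean square difference of log2 signals, with each gene set to its control mean, over 12337 other genes. Sprr2g, which encodes a cornified-envelope protein of epithelia, differed from Lcn2 by 0.741 on this measure. Cbr3, a carbonyl reductase, differed by 0.785. The median over all genes was 4.28, and this order is a description without a test.

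Havcr1 had the second largest estimates among the markers, but its control arrays were not alike. Control kidneys gave Havcr1 signals of 8.57, 8.31, 11.62 and 9.21 (9.43 ± 1.51, SD, n = 4). Fh1-/- kidneys gave 11.71, 10.42, 11.66 and 11.19, and Fh1-/-Hif-1α-/- kidneys 11.90, 12.34, 11.01 and 12.06. Control replicate 3 lay within the range of the Fh1-/- arrays and above the lowest Fh1-/-Hif-1α-/- array, and the other 3 controls lay below both groups.

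The Havcr1 difference was 1.82 in Fh1-/- kidneys (95% interval 0.52 to 3.12, adjusted p = 0.1001, limma). Havcr1 rose by 2.40 in Fh1-/-Hif-1α-/- kidneys (95% interval 1.10 to 3.70, 5.27-fold, adjusted p = 0.0176, limma), with an exact permutation p of 0.057. Without control replicate 3 the differences were 2.55 (adjusted p = 0.0044) and 3.13 (adjusted p = 0.000389, limma). The call in Fh1-/-Hif-1α-/- kidneys was lost without Fh1-/-Hif-1α-/- replicate 2 (2.23, adjusted p = 0.0552), control replicate 1 (2.11, adjusted p = 0.0596) or control replicate 2 (2.03, adjusted p = 0.0549, limma), and in a plain test without moderation (adjusted p = 0.0544). On control replicate 3 the other markers were not high by their brightest probes, since Vcam1, Sox9, Cd44, Vim and Fgg each had their lowest control signal there. A dimmer Cd44 probe had its highest control signal there (8.44).

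Among the adhesion receptors, Vcam1, which binds leukocytes through their integrins, rose in both genotypes. The brightest of its 3 probes gave 10.09, 10.47, 10.004 and 10.47 in control kidneys (10.26 ± 0.25, SD, n = 4). It gave 11.52, 10.84, 11.96 and 11.20 in Fh1-/- kidneys, and 11.80, 11.62, 11.43 and 11.58 in Fh1-/-Hif-1α-/- kidneys. Every array of both genotypes lay above every control array, and the 4 Fh1-/-Hif-1α-/- arrays lay inside the range of the Fh1-/- arrays.

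The rise of Vcam1 was 1.12 in Fh1-/- kidneys (95% interval 0.67 to 1.57, adjusted p = 0.00953) and 1.35 in Fh1-/-Hif-1α-/- kidneys (0.90 to 1.80, adjusted p = 0.00103, limma). Between these genotypes it differed by 0.23 (95% interval -0.21 to 0.68, adjusted p = 0.881). The second Vcam1 probe was dimmer and gave 0.68 (adjusted p = 0.166) and 0.90 (adjusted p = 0.0410, limma). The latter call was lost in 8 of 12 fits that each left out 1 array, with a shift to equal medians (adjusted p = 0.0503), with Xist as a covariate (0.0526) and in the plain test without moderation (0.088). The third and dimmest gave 0.49 (adjusted p = 0.267) and 0.54 (adjusted p = 0.145), so the 3 probes shared the direction and only the brightest passed in both comparisons. The dimmest had a control mean of 7.52, near the floor at percentile 0.87 of all probes.

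The 5 genes most like Vcam1 over the 12 arrays, by the measure used for Lcn2, were Nectin2, Bex3, Samd5, Sdk1 and Cp. Nectin2, a cell adhesion molecule, differed from Vcam1 by 0.208, and Cp (ceruloplasmin, a copper-carrying plasma protein) by 0.233. The median over all genes was 1.09.

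Cd44, the hyaluronan receptor that regenerating tubules display, rose in both genotypes by smaller amounts. The brightest of 3 Cd44 probes gave 8.40, 8.37, 8.06 and 8.38 in control kidneys (8.30 ± 0.16, SD, n = 4). It gave 9.34, 8.77, 9.80 and 8.84 in Fh1-/- kidneys (9.19 ± 0.48, SD, n = 4) and 9.66, 9.63, 9.66 and 9.42 in Fh1-/-Hif-1α-/- kidneys (9.59 ± 0.12, SD, n = 4). No array of either genotype overlapped the controls, and Fh1-/- replicates 2 and 4 were the nearest to them.

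The Cd44 rise was 0.89 in Fh1-/- kidneys (95% interval 0.46 to 1.31, adjusted p = 0.0247) and 1.29 in Fh1-/-Hif-1α-/- kidneys (0.86 to 1.72, adjusted p = 0.00105, limma). The call in Fh1-/- kidneys was lost without Fh1-/- replicate 1 or 3 or control replicate 1, 2 or 3, with estimates of 0.68 to 1.02 and adjusted p of 0.0132 to 0.0813 over the 12 fits that left out an array. It was also lost in a fit of only these 2 groups (adjusted p = 0.0512) and in the plain test (adjusted p = 0.0614). Of the other Cd44 probes, one gave 0.82 (adjusted p = 0.0275) and 1.23 (adjusted p = 0.000992), and the other 0.51 (adjusted p = 0.0921) and 0.56 (adjusted p = 0.0327, limma). The call at 0.82 was lost in 3 of 12 fits that left out an array. It was also lost in the fit of 2 groups (adjusted p = 0.0538) and in the plain test (0.0654). The call at 0.56 was lost in 6 of 12 such fits and in the plain test (adjusted p = 0.0568). The measured genes listed as partners of Cd44, osteopontin and these receptors were hyaluronidases, integrin chains and the metalloproteinase Mmp9. None passed, 0 of 8 in each comparison with control by limma and by a plain test without moderation. With 1 array left out 0 to 1 passed in each. Fh1-/- replicate 2 and control replicate 4 moved the first count, and Fh1-/-Hif-1α-/- replicate 1 the second. At an unadjusted limma p under 0.05, 1 was higher and 1 lower after loss of Fh1, and 1 was lower after loss of both genes.

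Sox9, which marks tubule cells that re-enter a repair programme, rose over control in Fh1-/-Hif-1α-/- kidneys and did not pass in Fh1-/- kidneys. The brighter of 2 Sox9 probes gave 8.52, 8.96, 8.52 and 9.06 in control kidneys (8.77 ± 0.29, SD, n = 4). Fh1-/- kidneys gave 9.33, 8.87, 10.70 and 8.84 (9.44 ± 0.87, SD, n = 4), where replicates 2 and 4 lay within the control range and replicate 3 above all 12 arrays. Fh1-/-Hif-1α-/- kidneys gave 10.47, 10.31, 10.17 and 9.86 (10.20 ± 0.26, SD, n = 4), all above the controls.

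The Sox9 difference was 0.67 in Fh1-/- kidneys (95% interval -0.06 to 1.40, adjusted p = 0.278) and the rise in Fh1-/-Hif-1α-/- kidneys 1.44 (0.70 to 2.17, adjusted p = 0.0133, limma). The direct difference between these genotypes was 0.76 (95% interval 0.03 to 1.497) and did not pass (adjusted p = 0.537), so a larger change with the added loss of Hif-1α is not shown. The dimmer Sox9 probe gave 0.35 (adjusted p = 0.324) and 0.55 (adjusted p = 0.0733). Its control mean of 7.31 was near the floor, at percentile 0.23 of all probes.

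Vim did not pass in either genotype. Control kidneys gave Vim signals of 9.89, 9.93, 9.35 and 10.02, Fh1-/- kidneys 10.51, 9.86, 10.42 and 9.87, and Fh1-/-Hif-1α-/- kidneys 10.03, 10.26, 11.19 and 10.72. Fh1-/- kidneys overlapped the controls, and the lowest Fh1-/-Hif-1α-/- array lay 0.0084 above the highest control. The differences were 0.37 (95% interval -0.17 to 0.91, adjusted p = 0.437) and 0.75 (0.21 to 1.30, adjusted p = 0.0588, limma). Without Fh1-/-Hif-1α-/- replicate 1 the second became 0.93 and passed (adjusted p = 0.0272).

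Fgg was higher in Fh1-/- kidneys without overlap but did not pass. Control kidneys gave Fgg signals of 10.08, 10.21, 9.94 and 10.57, and Fh1-/- kidneys 11.11, 11.19, 10.83 and 10.61. Fh1-/-Hif-1α-/- kidneys gave 11.79, 10.99, 9.85 and 11.38, of which 3 lay above all controls and replicate 3 below all of them. The differences were 0.73 (95% interval 0.03 to 1.44, adjusted p = 0.214) and 0.80 (0.10 to 1.51, adjusted p = 0.111, limma). Without Fh1-/-Hif-1α-/- replicate 3 the second was 1.19 and passed (adjusted p = 0.00436). In Fh1-/- kidneys Fgg passed in a fit of only these 2 groups (adjusted p = 0.0415) and with array weights (0.0372). With array weights it also passed in Fh1-/-Hif-1α-/- kidneys (0.96, adjusted p = 0.0117, limma).

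Fibrinogen is built from 3 chains, and the neighbouring gene of the alpha chain, Fga, was followed beside Fgg although it is not among the 10 markers. Its brighter probe gave 10.74, 10.61, 11.04 and 11.12 in control kidneys. Fh1-/- kidneys gave 11.03, 11.18, 11.19 and 11.59, and Fh1-/-Hif-1α-/- kidneys 11.72, 11.35, 10.60 and 11.79. The differences of 0.37 (adjusted p = 0.398) and 0.49 (adjusted p = 0.175, limma) did not pass, and Fh1-/-Hif-1α-/- replicate 3 was again the lowest of its group. In GRCm38.p6 the genes Fgg (chr3:83007724-83015056), Fga (chr3:83026153-83033627) and Fgb (chr3:83042246-83049863) lie next to each other.

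The 250 bases before the start sites of these 3 chains are shown because the genes are neighbours and Fgg and Fga were lowest of their group on the same Fh1-/-Hif-1α-/- array, with capitals for matches to the motifs named above. Fgg (chr3:83007474-83007723, plus strand) held 2 overlapping NF-kB matches, Fga (chr3:83025903-83026152, plus strand) 1 STAT match, and Fgb (chr3:83049864-83050113, minus strand) 1 AP-1 and 1 STAT match.
Fgg promoter: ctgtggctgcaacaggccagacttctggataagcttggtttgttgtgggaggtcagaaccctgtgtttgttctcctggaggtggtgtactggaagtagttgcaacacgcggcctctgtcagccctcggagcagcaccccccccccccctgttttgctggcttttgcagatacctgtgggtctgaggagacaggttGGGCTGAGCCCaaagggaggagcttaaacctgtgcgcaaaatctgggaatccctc
Fga promoter: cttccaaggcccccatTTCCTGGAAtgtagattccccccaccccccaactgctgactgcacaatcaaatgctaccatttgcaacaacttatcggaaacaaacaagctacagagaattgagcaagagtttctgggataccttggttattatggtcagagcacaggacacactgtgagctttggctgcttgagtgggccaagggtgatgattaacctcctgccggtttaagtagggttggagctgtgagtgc
Fgb promoter: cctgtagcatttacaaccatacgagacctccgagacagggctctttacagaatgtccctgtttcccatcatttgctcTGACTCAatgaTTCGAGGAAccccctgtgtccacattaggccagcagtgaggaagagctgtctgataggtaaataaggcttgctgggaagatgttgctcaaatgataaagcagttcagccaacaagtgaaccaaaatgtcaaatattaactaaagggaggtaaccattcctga
The STAT letters occur in 7.02% and the AP-1 letters in 6.75% of all promoter windows of this length. STAT3 is the known mediator of the acute-phase response of fibrinogen in hepatocytes, and these matches are a description of the sequence.

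**Figure D2:**
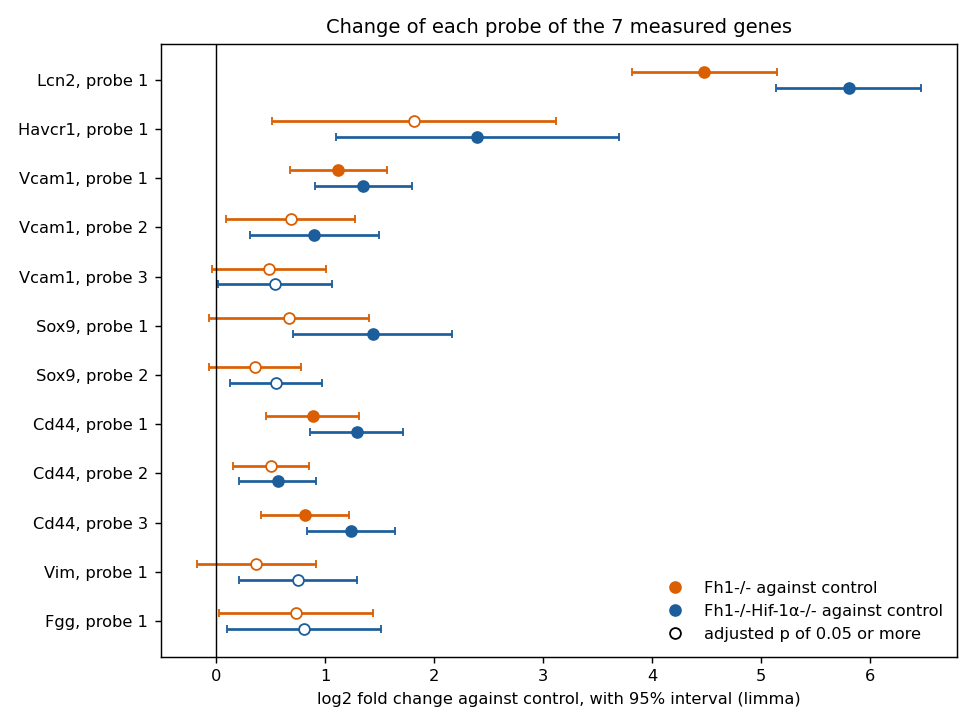
Log2 fold change against control (x axis) with 95% intervals from limma for each of the 12 probes (y axis, probes of a gene from the brightest down), in orange for Fh1-/- and blue for Fh1-/-Hif-1α-/- kidneys, filled where the adjusted p was under 0.05. Of 12 probes 4 (orange) and 8 (blue) passed, all higher, against 3.04% and 8.62% of all probes.

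The comparison of Fh1-/-Hif-1α-/- with Fh1-/- kidneys asks whether the markers depend on Hif-1α. None of the 7 markers passed in either direction, where 0.186% of all genes rose and 0.081% fell. At an unadjusted limma p under 0.05 the brightest probes of Lcn2 and Sox9 were higher, as was a dimmer Cd44 probe, where 6.8% of all genes were. The 7 estimates were all positive, from 0.07 for Fgg to 1.33 for Lcn2, with a median of 0.40 against 0.01 over all genes. With Xist, the RNA of the inactive X chromosome, as a covariate the Lcn2 difference of 1.33 did pass (adjusted p = 0.015, limma). Havcr1 differed by 0.58 with an interval of -0.72 to 1.88, so a difference of either sign is not excluded for this gene at 4 arrays a group.

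The spread within a genotype is given by array. In Fh1-/- kidneys replicates 1 and 3 were above the group mean in 6 of 7 markers each, replicate 2 in 1 and replicate 4 in 0. Fh1-/- replicate 3 gave the highest signal of its group for Lcn2, Vcam1, Sox9 and Cd44. Among the controls replicate 4 was highest in 5 of 7 markers and replicate 3 lowest in 5. In Fh1-/-Hif-1α-/- kidneys no array was highest in more than 4 markers.

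**Figure D3:**
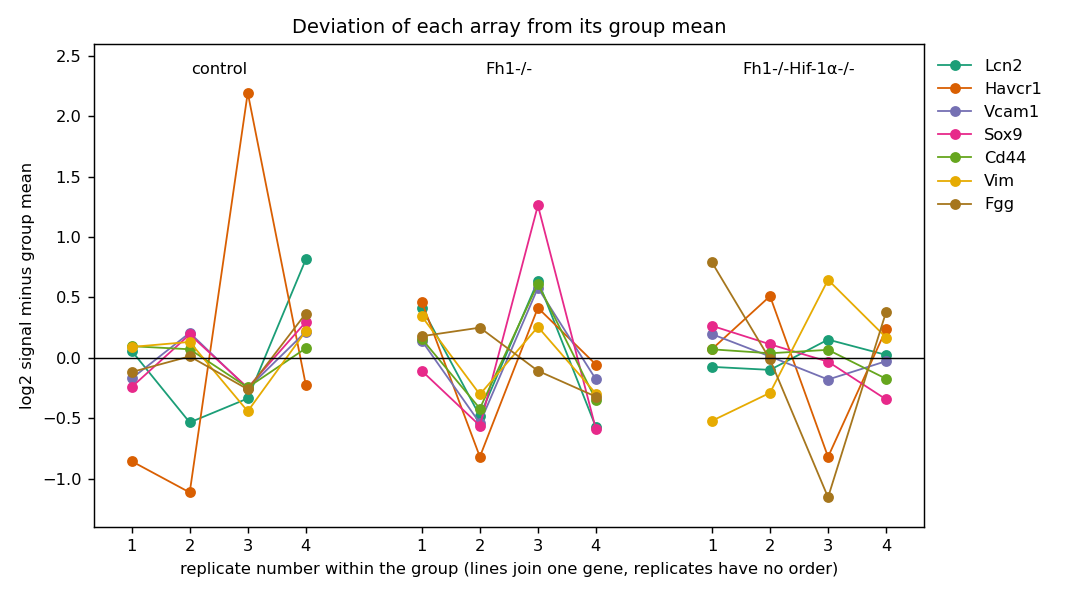
Log2 signal minus the mean of its own genotype group (y axis) on each of 12 arrays (x axis, replicate number within a group), 1 colour a marker. Fh1-/- replicates 1 and 3 lie above 0 for 6 of 7 markers each and replicates 2 and 4 mostly below, and control replicate 3 is high for Havcr1 alone.

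Xist was high on 5 arrays (12.07 or more, against 7.76 or less on the others), and the labels give no sex. These were control replicate 4, Fh1-/- replicates 1 and 3 and Fh1-/-Hif-1α-/- replicates 2 and 3. In Fh1-/- kidneys all 7 markers were on average higher on the Xist-high arrays, with a median difference of 0.77. Of these, 6 did not overlap the other arrays, where 21.1% of all genes were higher without overlap in this split of 2 against 2 arrays. In Fh1-/-Hif-1α-/- kidneys 4 of 7 were higher, with a median of 0.05 and 0 without overlap, against 13.8% of all genes. In control kidneys 6 of 7 were higher on the single Xist-high array. The share of all genes was not counted for the controls, and 1 array gives no spread to read this against. With Xist as a covariate the number of markers that rose over control stayed at 3 and 5, and the share of all genes was not counted. Whether sex bears on the spread among Fh1-/- kidneys was not tested.

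The arrays also fell into sets by their lowest signals. The 1st percentile was 7.46 to 7.54 on replicates 1 and 2 of each group and 7.34 to 7.40 on replicates 3 and 4, and the labels name no batch. Within replicates 1 and 2 alone all 7 markers had positive differences in both comparisons with control. After loss of Fh1, Lcn2 and Havcr1 (adjusted p = 0.0429) passed and Vcam1 (0.126) and Cd44 (0.143, limma) did not, so that 2 of 7 rose where 1.09% of all genes did. After loss of both genes 6 of 7 rose, all but Vim, where 10.3% of all genes did. Within replicates 3 and 4 alone all 7 were again positive, with Lcn2 as the 1 gene that passed in each, where 0.203% and 0.98% of all genes rose. The Havcr1 differences were 2.62 and 3.67 within the first set and 1.01 and 1.12 within the second, which holds control replicate 3.

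Other genes known in injured and repairing tubules were taken as lists, also chosen with earlier results of these data known. For these lists and those of cell types below, 3.9% of all genes rose and 2.26% fell after loss of Fh1. After loss of both genes 10.7% rose and 8.64% fell, and no list was tested as a set. Of 16 measured genes of epithelial repair and dedifferentiation, 8 rose after loss of Fh1 and 9 after loss of both genes, and none fell. Cldn4, a claudin of tight junctions, rose by 1.83 (adjusted p = 0.000431) and 3.00 (adjusted p = 2.88e-06), and was higher in Fh1-/-Hif-1α-/- than in Fh1-/- kidneys (1.17, adjusted p = 0.0402, limma). This last call was lost with the replicate block (adjusted p = 0.0775), in a fit of only the 2 groups (0.0917), in the plain test (0.157) and in 9 of 12 fits that left out 1 array. Lgals3, a galactoside-binding lectin, rose by 1.58 and 1.98. Akap12, a scaffold for protein kinase A, rose by 1.06 (not passing in the plain test, adjusted p = 0.0618) and 1.85, and Tnfrsf12a, the TWEAK receptor, by 1.31 and 1.59.

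Of 9 other urinary and secreted injury markers, 1 rose and 1 fell in Fh1-/- kidneys, and 2 rose and 2 fell in Fh1-/-Hif-1α-/- kidneys. Over the fits that left out 1 array, 1 to 3 and 3 to 4 passed, and Fh1-/- replicates 1 and 3 and control replicates 1 and 3 moved the first count. Timp1, a metalloproteinase inhibitor, rose by 1.31 (adjusted p = 0.0384) and 1.82. The call in Fh1-/- kidneys was lost with the replicate block (adjusted p = 0.0646), in a fit of only the 2 groups (0.0583) and in the plain test (0.0917). Timp2 of the same family rose by 1.00 in Fh1-/-Hif-1α-/- kidneys. Umod, the uromodulin of the thick ascending limb, fell by 0.67 and 0.67, which under quantile normalization became -0.32 in Fh1-/- kidneys and no longer passed (adjusted p = 0.0924, limma). Igfbp7, an insulin-like growth factor binding protein, fell by 0.41 in Fh1-/-Hif-1α-/- kidneys, and under quantile normalization differed by -0.05 (adjusted p = 0.455). It also did not pass with the values as deposited (adjusted p = 0.0603), without the variance trend (0.0564), in a fit of only the 2 groups (0.0599) or in the plain test (0.0769).

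Among 11 immediate early and AP-1 genes 3 rose after loss of Fh1 and 7 after loss of both genes. These counts were 2 to 5 and 5 to 8 with 1 array left out, and Fh1-/- replicate 2 and control replicate 4 moved the first. The transcription factors Atf3 (1.48 and 1.59), Fosl2 (1.29 and 1.39) and Junb (1.18 and 1.38) rose in both, Junb not passing in the plain test of Fh1-/- kidneys (adjusted p = 0.0712), and Fos rose by 1.60 in Fh1-/-Hif-1α-/- kidneys. Of 15 NF-kB and STAT3 targets 2 and 4 rose. With 1 array left out 1 to 4 and 2 to 5 did, and the counts moved by over 1.5 times without Fh1-/- replicate 1 or 3, Fh1-/-Hif-1α-/- replicate 2 or 4 or control replicate 1, 2 or 3. Stat3 itself rose by 0.69 and 0.92 and Socs3, its feedback inhibitor, by 1.55 in Fh1-/-Hif-1α-/- kidneys. The chemokine Cxcl1 rose by 1.18 there (adjusted p = 0.0465, limma), a call that was lost with a shift to equal medians (adjusted p = 0.0526), the replicate block (0.0632), a fit of only the 2 groups (0.0635) and the plain test (0.101). Tnfaip3, a negative regulator of NF-kB, rose by 0.54 in Fh1-/- kidneys.

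Of 9 fibrinogen and acute-phase genes only Cp passed, with rises of 1.30 (adjusted p = 0.00741) and 1.46 (adjusted p = 0.00122, limma), and without Fh1-/-Hif-1α-/- replicate 3 the second count was 2. Of 5 genes for the receptors that take up lipocalin 2 and other filtered proteins, 2 fell after loss of Fh1 and all 5 after loss of both genes, with medians of -0.47 and -0.78. Between 0 and 3 and between 4 and 5 passed with 1 array left out, and the first count moved without Fh1-/- replicate 1 or 3 or control replicate 1, 3 or 4. Lrp2 (megalin) differed by -0.47 (adjusted p = 0.0797) in Fh1-/- kidneys and fell by 0.78 in Fh1-/-Hif-1α-/- kidneys. Its partner Cubn (cubilin) differed by -0.35 and fell by 0.91, and Amn, which brings cubilin to the membrane, fell by 0.77 and 0.83. The adaptor Dab2 fell by 0.61 and 0.73, and the calls of Amn and Dab2 in Fh1-/- kidneys were lost in the plain test (adjusted p = 0.071 and 0.0676).

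**Figure D4:**
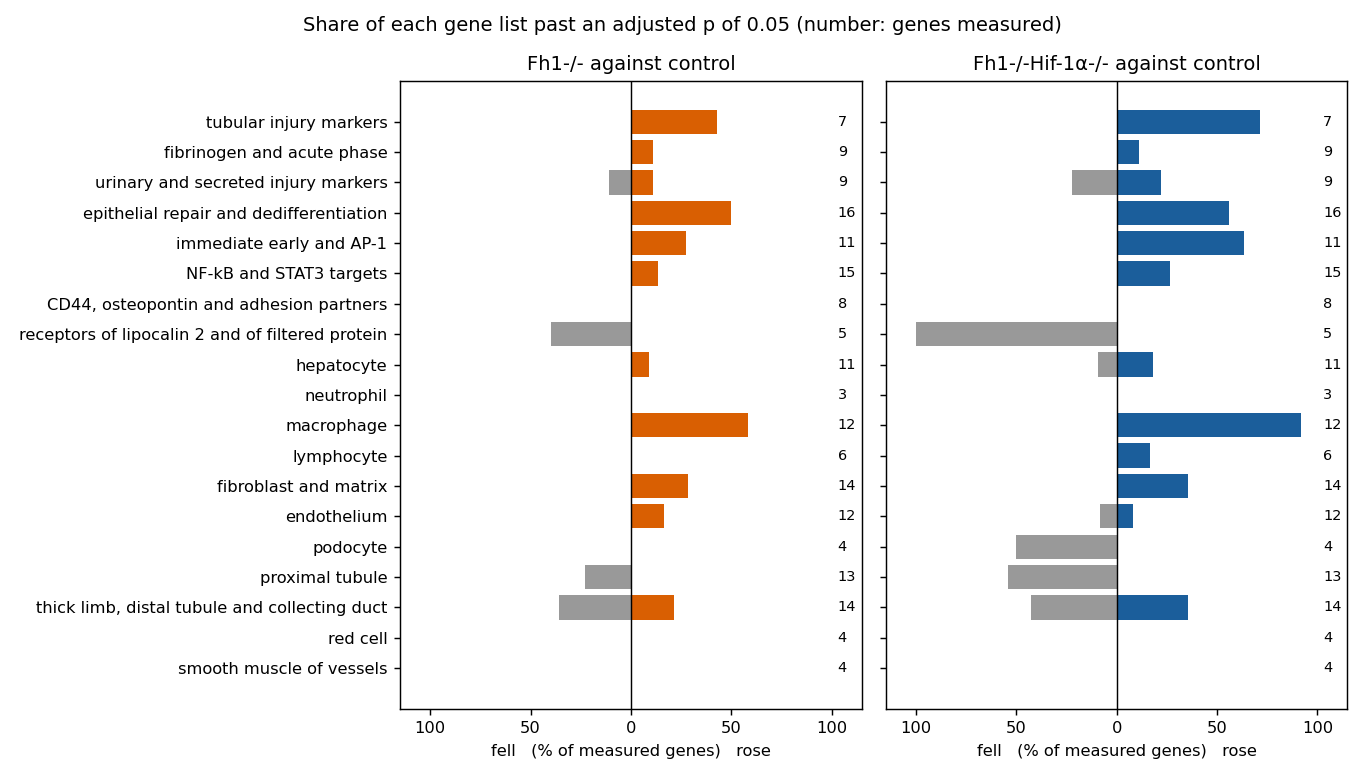
Share of the measured genes of each list (y axis) that rose (coloured bars to the right) or fell (grey bars to the left) at an adjusted p under 0.05, in percent, for Fh1-/- and Fh1-/-Hif-1α-/- kidneys against control, with the number of measured genes at the right. Among the 7 tubular injury markers 3 and 5 rose and none fell, and the macrophage list has 7 and 11 of 12 that rose.

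Several cell types of the kidney express some of these markers, and in RNA of whole tissue fewer cells of a type cannot be told apart from less RNA per cell. Of 12 measured macrophage markers 7 rose after loss of Fh1 and 11 after loss of both genes. Their mean log2 signal was 9.84 to 10.14 over control arrays, 10.51 to 11.15 over Fh1-/- and 10.82 to 11.10 over Fh1-/-Hif-1α-/- arrays. Of 14 fibroblast and matrix genes 4 and 5 rose, with mean signals of 9.42 to 9.94, 10.03 to 10.34 and 10.06 to 10.54. With 1 array left out 1 to 5 and 3 to 7 passed, and the counts moved by over 1.5 times without Fh1-/- replicate 1 or 3, Fh1-/-Hif-1α-/- replicate 2 or control replicate 1 or 3. Of 12 endothelial genes 2 rose in Fh1-/- kidneys, and 1 rose and 1 fell in Fh1-/-Hif-1α-/- kidneys, where 10.7% and 8.64% of all genes did. Of the 12 endothelial genes 0 to 2 and 0 to 4 passed with 1 array left out. Fh1-/- replicates 1, 2 and 3, Fh1-/-Hif-1α-/- replicate 2 and control replicates 1, 2 and 3 moved these counts. Macrophages and fibroblasts are known to express Cd44 and Vim, and endothelium and interstitial cells Vcam1, and the part of these cells in the marker values was not tested.

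Neutrophils, which store lipocalin 2, are another known source of Lcn2. Of 12 listed neutrophil genes 3 were measured, and 0 of these passed in either comparison with control by limma (0 also at an unadjusted p under 0.05) or by the plain test, with S100a8 at 0.25 and 0.18, S100a9 at 0.23 and 0.03 and Csf3r at -0.04 and 0.01. Their mean signal was 8.17 to 8.58 on control, 8.09 to 9.08 on Fh1-/- and 8.10 to 8.99 on Fh1-/-Hif-1α-/- arrays. The part of neutrophils, or of other cells outside the tubule, in the Lcn2 values was not tested. Hepatocyte genes, looked at because fibrinogen is a liver product, gave 1 of 11 that rose after loss of Fh1, and 2 that rose and 1 that fell after loss of both genes. Over all genes 3.9% rose after loss of Fh1, and 10.7% rose and 8.64% fell after loss of both genes. Fetub rose by 1.32 and 2.00, Ambp rose by 0.81 in the latter, and Ttr fell by 1.87 there. The call of Ambp was lost in a fit of only the 2 groups (adjusted p = 0.0588) and in the plain test (0.0772). With 1 array left out 1 to 2 and 2 to 5 of the 11 passed, moved by Fh1-/-Hif-1α-/- replicate 1 in the first and control replicate 3 in the second. The mean signal of the 11 hepatocyte genes was 9.67 to 10.15 on control and 10.07 to 10.73 on Fh1-/- arrays. On Fh1-/-Hif-1α-/- arrays it spread more widely, from 9.93 to 11.16. Whether Fgg varied with these genes over the arrays was not tested.

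Havcr1 is known to be switched on in the proximal tubule. Of 13 proximal tubule genes 3 fell after loss of Fh1 and 7 after loss of both genes, and none rose. The numbers that passed were 1 to 3 and 3 to 8 with 1 array left out, and the counts moved by over 1.5 times without Fh1-/- replicate 1 or 3, Fh1-/-Hif-1α-/- replicate 2 or 3 or control replicate 1 or 3. Their mean signal was 13.87 to 14.03 on control, 13.06 to 13.71 on Fh1-/- and 12.88 to 13.40 on Fh1-/-Hif-1α-/- arrays, and the control arrays did not overlap the others. Slc5a2, the glucose transporter SGLT2, fell by 1.22 and 1.61. Of 14 genes of the thick limb, distal tubule and collecting duct 3 rose and 5 fell in Fh1-/- kidneys, and 5 rose and 6 fell in Fh1-/-Hif-1α-/- kidneys. Egf, made in the distal tubule, fell by 2.39 and 3.02, while Aqp2, the water channel of principal cells, rose by 1.08 and 1.97.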

How the data were processed

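Expression was measured on 12 Illumina MouseWG-6 arrays, 4 a genotype, grouped by the genotype in the labels. Per the methods, the authors used GenomeStudio for extraction and GeneSpring GX for a shift to the 75th percentile, with the samples' median as baseline. The deposited table holds log2 signals of 23863 probes between 6.40 and 16.59, and how these were filtered is not given in the sources used here. A second table, not normalized, holds 24 columns (signals and detection p) whose names match no sample. It was not used, so signal over background is unknown, and precision is limited by the 4 arrays a group.

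Gene symbols came from the platform annotation, of which 19906 probes have 1, 9 several and 3948 none. Arrays were shifted to a common 75th percentile and fitted in R 4.3.3 by limma 3.58.1, with eBayes using a trend of variance on signal. Single values were also compared by an exact two-sided permutation test over 70 arrangements. The fit was tested on simulated data. Named genes were the 10 markers with all probes, Fga, Fh1, Hif1a, up to 4 passing genes of each list with the largest change, and the 5 genes most like Lcn2 and Vcam1. Genes outside this rule (S100a8, S100a9, Csf3r, Mmp9 and Xist) were named after their values were seen. The markers and lists were chosen with earlier results of these data known. Promoters came from RefSeq, where 7 of the 10 markers had an entry. Alternatives were other normalizations, tests, thresholds, blocks, covariates, probe choices and leaving out each array. Lists of lymphocytes (0 and 1 of 6 rose), podocytes (0 and 2 of 4 fell), red cells and smooth muscle (0 of 4 each in both comparisons) were also counted.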

Additional observations from a re-analysis of the deposited data

Results flagged for a closer look

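Of 36 sets of 4 arrays (12 probes in 3 groups) 2 held an array whose gap to the nearest of the others took up more of the range than Dixon's 95% critical value of 0.829, and chance alone gives such gaps in about 5% of sets. Both belong to the brightest Cd44 probe. Control replicate 3 gave 8.056, where the other 3 controls lay between 8.373 and 8.398 (gap over range 0.926). Fh1-/-Hif-1α-/- replicate 4 gave 9.417, where the others lay between 9.628 and 9.661 (0.866). A dimmer Cd44 probe gave its highest control signal (8.44) on control replicate 3.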

How the results depend on the processing

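Over the alternatives the numbers of markers that rose over control (3 after loss of Fh1, 5 after loss of both genes) moved by over 1.5 times in these cases. Array weights gave 5 in Fh1-/- kidneys, with Havcr1 (2.22, adjusted p = 0.0216) and Fgg (0.81, adjusted p = 0.0372) in addition. The share of all genes that rose with array weights was not counted. An adjusted p under 0.01 gave 3 in Fh1-/-Hif-1α-/- kidneys, a stricter threshold by construction. Within replicates 3 and 4 alone 1 and 1 passed. Between Fh1-/-Hif-1α-/- and Fh1-/- kidneys Xist as a covariate gave 1, Lcn2, in place of 0, and the share of all genes in that fit was not counted. The counts did not move by over 1.5 times within replicates 1 and 2 alone (2 and 6). Nor did they with 1 array left out in turn (2 to 3, 4 to 6 and 0 to 0).

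Same-numbered arrays are not known to share a litter, and over 12 same-numbered pairs the deviations from the group means correlated with r of -0.309 to 0.499, with 6 over 0.1, so the numbers were not taken as pairs. With the replicate block the counts were 3, 5 and 0, and among the marker probes a dimmer Cd44 probe (0.51, adjusted p = 0.0376, Fh1-/-) and the dimmer Sox9 probe (0.55, adjusted p = 0.0491, Fh1-/-Hif-1α-/-) passed in addition.

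Signs turned only where the main estimate was near 0 or no call was made. Between Fh1-/-Hif-1α-/- and Fh1-/- kidneys, within replicates 3 and 4 the differences were -0.0726 and -0.21 for Vcam1 probes, -0.19 for the dimmer Sox9 probe, -0.10 for Fgg and -0.0095 for a dimmer Cd44 probe, which was at -0.0096 with array weights, and within replicates 1 and 2 Vim was at -0.0439. With 1 array left out, that Cd44 probe ranged from -0.075 to 0.22, the dimmest Vcam1 probe from -0.12 to 0.29 and Fgg from -0.19 to 0.45. Against control, the dimmer Hif1a probe was at 0.14 in Fh1-/-Hif-1α-/- kidneys within replicates 1 and 2, and Emcn at -0.0017 in Fh1-/- kidneys within replicates 3 and 4. The causes were not tested. Over all alternatives 858 values of marker probes kept direction and call, 59 lost a call, 23 gained one and 14 changed sign.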
